A study of Felis catus with 2 samples.

Results

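The genes described here are 8 markers of macrophages and other leukocytes, namely PTPRC, CD68, CD163, AIF1, TYROBP, CSF1R, CD14 and LYZ. Their rows were found in the deposited expression table by exact gene name. Of the 8 names, 7 were listed, each on 1 row, among 19998 different gene names. CD68, which encodes a glycoprotein of the phagocyte lysosome, was not matched by name and was not analysed here. LYZ was listed at 0 in both libraries, so 6 markers had values that could be compared.

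Polyadenylated RNA was sequenced from 2 libraries, 1 from a cat with primary congenital glaucoma (PCG) and 1 from an unrelated healthy control, both 2 months old. The affected cat came from a Siamese-founded colony in which PCG is inherited with a recessive mutation of LTBP2, a protein of extracellular microfibrils. No treatment was described for either cat, and the sex of the cats and the breed of the control are not given in the sources used here. The tissue dissected was the angle between iris and cornea together with the ciliary body, trabecular meshwork and neighbouring sclera. Since each condition is 1 cat and 1 library, no difference could be tested, and cat, breed, disease and dissection cannot be told apart.

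Macrophages are phagocytes that live in most tissues, including the uvea and the aqueous outflow pathway of the eye, where they take up debris and pigment and sample the fluid that drains. Their survival depends on the CSF1 receptor, encoded by CSF1R. They share PTPRC, the surface phosphatase CD45, with nearly all other leukocytes, while CD163 and CD14 are carried mainly by macrophages and monocytes.

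The values are FPKM, fragment numbers scaled by transcript length and library size, so levels of different genes can be compared per length. At loci without a gene name, low values stood at whole multiples of the value of 1 fragment. A fragment on 1 kilobase of effective transcript length was worth 0.0141 FPKM in the normal cat and 0.0148 FPKM in the affected cat, so a given value rests on a similar number of scaled fragments in both. Ratios are given as log2 of (affected + 1) over (normal + 1), which understates differences of low genes. Loci entered the comparison if either library gave them 1 FPKM or more, which held for 16676 of 32065 loci and for 6 of the 7 markers listed. A fold range given below covers counting error only (95%, exact binomial) for a transcript with 1 kilobase of effective length. It is wider for a shorter transcript and narrower for a longer one.

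The 6 markers compared were present in both libraries, and 1 of them, CD163, stood apart. CD163 was 3.54 times as high in the affected as in the normal library, while AIF1, TYROBP, CSF1R and CD14 differed by less than 1.5-fold and PTPRC was 1.73 times lower. In bulk tissue, fewer cells of a type and less RNA per cell cannot be told apart. At least 2-fold higher values on the log2 ratio scale were found for 1 of the 6 markers, against 8.14% of all loci used. None of the 6 was at least 2-fold lower, against 8.75% of all loci. At 4-fold none was higher, against 1.68% of loci, and none lower, against 1.79%. The log2 ratio was above 0 for 3 markers and below 0 for the other 3. Their median log2 ratio was 0.017, and that of all loci used was -0.0047.

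**Figure D1:**
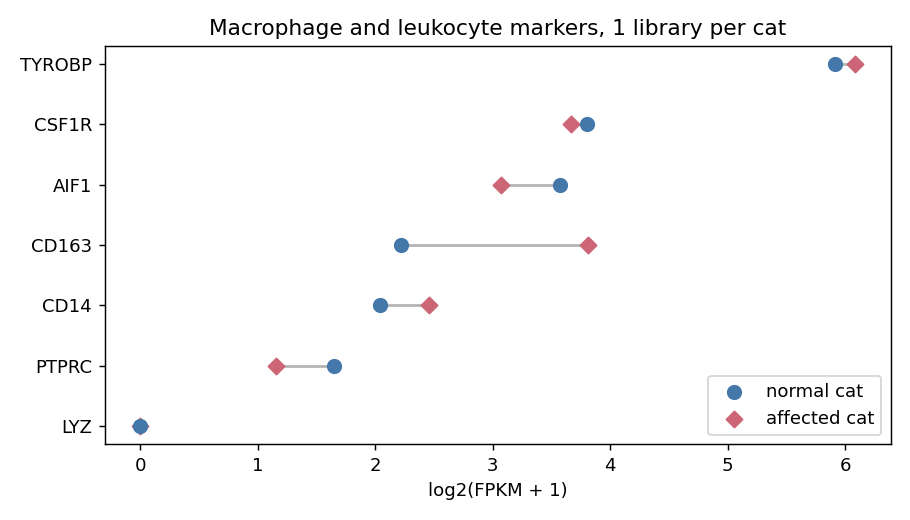
Level of each listed marker as log2(FPKM + 1) in the library of the normal cat (circles) and the affected cat (diamonds), 1 library each, with no error bars because there are no replicates. CD163 shows the widest gap, from 3.67 to 13 FPKM, and LYZ lies at 0 in both libraries.

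PTPRC, on chromosome F1 of felCat5 from 37156863 to 37286715, encodes CD45, a tyrosine phosphatase on the surface of nucleated blood cells. It was listed at 2.13 FPKM in the normal cat and 1.23 FPKM in the affected cat. The affected cat thus had 0.578 times the normal level (range 0.436 to 0.759), with a log2 ratio of -0.49. PTPRC was the lowest of the 6 markers in both libraries, and its value exceeded that of 19.5% of the loci used in the normal cat and 11.8% in the affected cat.

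TYROBP, on chromosome E2 from 17067130 to 17069851, encodes DAP12, an adaptor that carries the signal of activating receptors of myeloid and natural killer cells. It was the highest of the markers in both cats, with 59.2 FPKM in the normal cat and 66.7 FPKM in the affected cat. The fold difference was 1.13 (1.08 to 1.18), the log2 ratio 0.17. TYROBP exceeded 91.5% of the loci used in the normal cat and 92.1% in the affected cat, so its place among all loci was nearly the same in both cats. Within the normal library it was 27.8 times the level of PTPRC, and within the affected library 54.2 times.

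CSF1R, on chromosome A1 from 196671339 to 196767403, encodes the receptor tyrosine kinase that binds CSF1 and IL34. It was listed at 12.9 FPKM in the normal cat and 11.7 FPKM in the affected cat. The affected cat had 0.904 times the normal level (0.821 to 0.996), with a log2 ratio of -0.13. CSF1R ranked 2 of the markers in the normal cat and 3 in the affected cat. The table gives the gene HMGXB3 the same span, with 10.4 and 13.6 FPKM, so reads of the 2 genes may have been hard to separate.

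AIF1, on chromosome B2 from 33264932 to 33271112, encodes IBA1, a calcium-binding protein of the actin cytoskeleton of macrophages and microglia. It was listed at 10.9 FPKM in the normal cat and 7.39 FPKM in the affected cat. The affected cat had 0.676 times the normal level (0.603 to 0.757), with a log2 ratio of -0.51. AIF1 and PTPRC kept nearly the same proportion to each other, since AIF1 was 5.14 times PTPRC in the normal cat and 6.002 times in the affected cat.

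CD14, on chromosome A1 from 117310549 to 117312650, encodes the co-receptor that hands lipopolysaccharide to Toll-like receptor 4. It was listed at 3.12 FPKM in the normal cat and 4.50 FPKM in the affected cat. The fold difference was 1.44 (1.21 to 1.73), the log2 ratio 0.42. This was the second highest log2 ratio of the 6 markers, but 4022 of the loci used had a higher one.

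CD163, on chromosome B4 from 41612939 to 41643504, encodes the scavenger receptor through which macrophages take up haemoglobin bound to haptoglobin. It was listed at 3.67 FPKM in the normal cat and 13 FPKM in the affected cat. This was a 3.54-fold difference (3.08 to 4.09), with a log2 ratio of 1.58. That log2 ratio exceeded those of 96.9% of the loci used, and 513 loci had a higher one. CD163 was the fourth highest marker in the normal cat and the second highest in the affected cat, where it passed AIF1 and CSF1R.

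**Figure D2:**
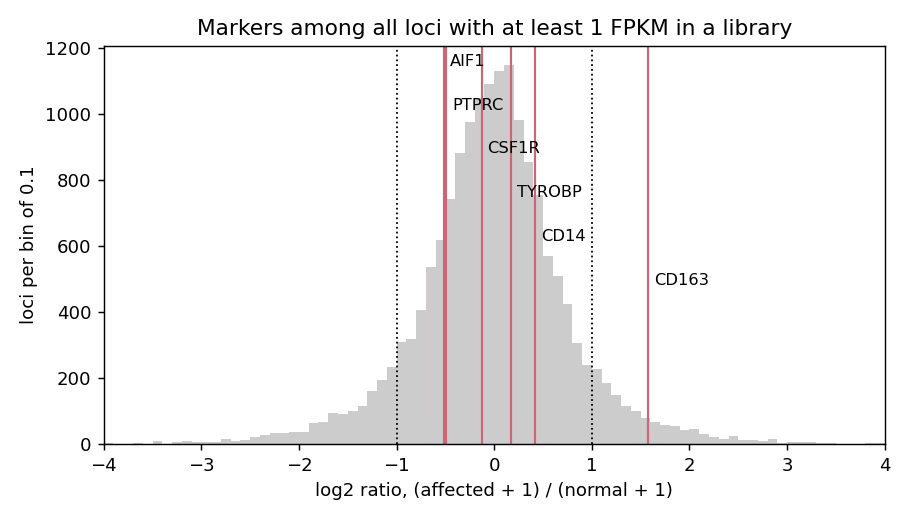
Distribution of the log2 ratio of (affected + 1) over (normal + 1) over the loci with at least 1 FPKM in a library (grey bars, number of loci per bin of 0.1, with 76 loci beyond the axis), with the 6 markers as vertical lines and dotted lines at 2-fold. CD163, at 1.58, is the only marker outside the dotted lines.

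LYZ, on chromosome B4 from 96514938 to 96520084, encodes lysozyme, which digests bacterial cell walls and is made by macrophages, neutrophils and lacrimal epithelium. Its value of 0 in both libraries was shared by 19.5% of the loci with a name. At 35 loci the value was 0 in 1 cat but 10 FPKM or more in the second cat. An example is CRYAA, a lens crystallin gene, with 22978 FPKM in the normal cat and 0 in the affected cat. A value of 0 is therefore not read as absence of lysozyme mRNA.

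Ratios between markers of the same library do not depend on the scaling between libraries. Since CD163 had the highest fold of the 6, its ratio to each of the others must be higher in the affected cat, and these ratios describe only the size of the gap. Relative to each of the other 5 markers, CD163 was between 2.45 and 6.13 times as high in the affected as in the normal library. It stood at 1.72 times PTPRC in the normal and 10.6 times PTPRC in the affected library. Against CSF1R, whose level was close in both cats, CD163 went from a ratio of 0.284 to 1.11. Against CD14 the ratios were 1.18 and 2.89, the narrowest gap of the 5. The 6 markers summed to 92.0 FPKM in the normal cat and 104.5 FPKM in the affected cat, of which CD163 made up 3.99% and 12.4%, and TYROBP 64.4% and 63.8%.

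**Figure D3:**
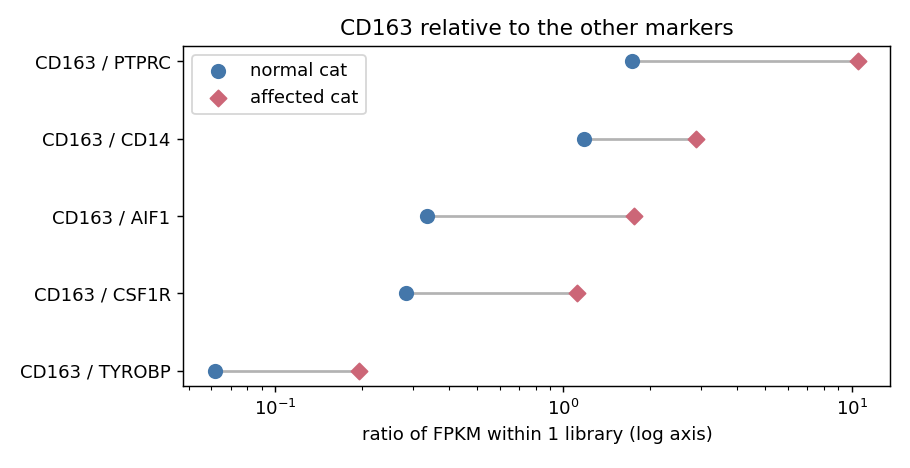
FPKM of CD163 divided by the FPKM of each of the other 5 markers within the normal (circles) and the affected library (diamonds), on a log axis, 1 library per cat. All 5 ratios are higher in the affected cat, as follows from CD163 having the highest fold, from 1.72 to 10.6 against PTPRC and from 1.18 to 2.89 against CD14.

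The wider gene lists given next were chosen with earlier results of these data known. Each is described by counts on the same log2 ratio scale. The added 1 FPKM lowers the ratio of low genes, so a gene can differ by 2-fold in FPKM without being counted. An example is IRF8, which was 2.45 times lower in the affected cat by FPKM. The order follows the roles of the markers.

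The ligands and lineage factors of macrophages were not at least 2-fold apart in any of the 6 genes used of 10 on that list, and 5 of the 6 were lower in the affected library. CSF1 was listed at 5.91 FPKM in the normal cat and 8.25 FPKM in the affected cat. IL34, the other ligand of CSF1R, was listed at 10.02 and 9.44 FPKM. The receptor and both of its ligands thus each differed by less than 1.5-fold between the cats. SPI1, the PU.1 transcription factor of myeloid cells, was listed at 8.08 and 6.28 FPKM. IRF8, which acts with PU.1, was closest to the 2-fold line, with 5.20 and 2.12 FPKM and a log2 ratio of -0.99. With a pseudocount of 0.1, or with both libraries rescaled to the same sum, 1 gene of this list was at least 2-fold lower.

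Of the genes around TYROBP, 4 of 12 were used and all 4 were lower in the affected library, none by 2-fold on the log2 ratio scale. TREM2, a receptor of lipids and debris that signals through DAP12, was listed at 3.97 FPKM in the normal cat and 2.88 FPKM in the affected cat. SYK, the kinase recruited by DAP12, was listed at 2.81 and 1.61 FPKM. FCER1G, a related adaptor, was not analysed here.

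Of the kinases and partners of CD45, 5 of 10 were used, with 1 at least 2-fold higher and none at least 2-fold lower. The higher gene was FYN, a Src family kinase that is also abundant in nerve and other tissues, with 21.3 FPKM in the normal cat and 51.3 FPKM in the affected cat. FGR, a Src family kinase of myeloid cells, was listed at 7.92 and 4.85 FPKM.

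Of the partners of CD14, 6 of 11 were used, with none at least 2-fold higher and 1 at least 2-fold lower. TLR4, the signalling receptor for lipopolysaccharide, was listed at 3.87 FPKM in the normal cat and 2.06 FPKM in the affected cat. LY96, which encodes its co-receptor MD-2, was listed at 13.3 and 11.0 FPKM. TLR2, the receptor for bacterial lipoproteins, was the lower gene, with 3.98 and 1.32 FPKM and a log2 ratio of -1.10. The other 3 genes used, which encode adaptors and a kinase downstream of these receptors, were higher in the affected cat. TICAM1 was listed at 9.79 and 15.4 FPKM, MYD88 at 12.8 and 14.3 FPKM and IRAK4 at 5.91 and 7.60 FPKM. Of the 6 genes used, 3 were thus higher and 3 lower in the affected cat, and TLR2 alone passed 2-fold.

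Of the scavenger receptors and genes of haemoglobin clearance, 9 of 13 were used, none at least 2-fold higher and 2 at least 2-fold lower. HP, which encodes the haptoglobin that carries haemoglobin to CD163, was listed at 5.23 FPKM in the normal cat and 9.84 FPKM in the affected cat, a log2 ratio of 0.80. HMOX1, which breaks down haem, was listed at 8.14 and 8.29 FPKM, nearly the same in both cats. SLC40A1, the iron exporter ferroportin, was the lowest of the list in log2 ratio, at -2.25, with 40.05 FPKM in the normal cat and 7.64 FPKM in the affected cat. STAB1, a scavenger receptor of macrophages and sinusoidal endothelium, was listed at 6.91 and 2.67 FPKM. VSIG4 and TIMD4, receptors of resident macrophages, had log2 ratios of 0.78 and 0.90. VSIG4 was listed at 2.24 and 4.56 FPKM, and TIMD4 at 2.095 and 4.795 FPKM. LYVE1, a hyaluronan receptor of resident macrophages and lymphatic endothelium, went the other way, with 9.70 and 6.31 FPKM, and MSR1, a scavenger receptor, was listed at 2.002 and 1.739 FPKM. With a pseudocount of 0.1, 1 gene of this list was at least 2-fold higher. The list thus held genes that were higher in the affected cat, as CD163 was, and genes that were lower there.

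The LAMP family, to which CD68 belongs, and the genes of the phagocyte lysosome were used in 12 of 13 cases, and none was 2-fold apart. LAMP1 was listed at 199.5 FPKM in the normal cat and 269.9 FPKM in the affected cat, LAMP2 at 106.2 and 130.3 FPKM. CTSS, a cathepsin typical of macrophages, was listed at 68.1 and 57.6 FPKM. LGMN, an asparaginyl protease, and GPNMB, a glycoprotein of macrophages and pigment cells, had the highest log2 ratios of the list, at 0.90 and 0.87. CYBB and NCF4, subunits of the phagocyte oxidase, had the lowest, at -0.54 and -0.62, and the list held 7 genes above and 5 below 0.

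The leukocyte actin genes, related to AIF1 by function, were all lower in the affected library, 8 of the 8 used of 10, and 1 was at least 2-fold lower. Their median log2 ratio was -0.49, against -0.0047 for all loci used. HCLS1, a cortactin of blood cells, was listed at 5.84 FPKM in the normal cat and 2.02 FPKM in the affected cat. CORO1A, a coronin of leukocytes, was listed at 7.29 and 3.65 FPKM. AIF1 itself, at -0.51, stood near the median of this list.

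Of the leukocyte surface and integrin genes, 14 of 16 were used, 5 higher and 9 lower in the affected library, with none at least 2-fold higher and 2 at least 2-fold lower. ITGA4, the integrin alpha 4 chain, was listed at 3.77 FPKM in the normal cat and 0.666 FPKM in the affected cat. ARHGDIB, a gene of blood cells and endothelium, was listed at 15.5 and 6.07 FPKM. LAPTM5, a lysosomal protein of blood cells, was listed at 26.3 and 19.2 FPKM. CD37, a tetraspanin of leukocytes, was listed at 17.9 and 13.1 FPKM. ITGB2, the common chain of the leukocyte integrins, went the other way, with 3.65 and 6.58 FPKM. In the class II antigen presentation list none of the 4 genes used was 2-fold apart, with 1 higher and 3 lower in the affected cat. CD74, the invariant chain, was the higher gene, with 82.1 and 101.3 FPKM. FLA-DRB, a class II beta chain, was listed at 73.7 and 61.8 FPKM, and HLA-DMA, which helps to load peptides, at 11.2 and 10.2 FPKM.

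**Figure D4:**
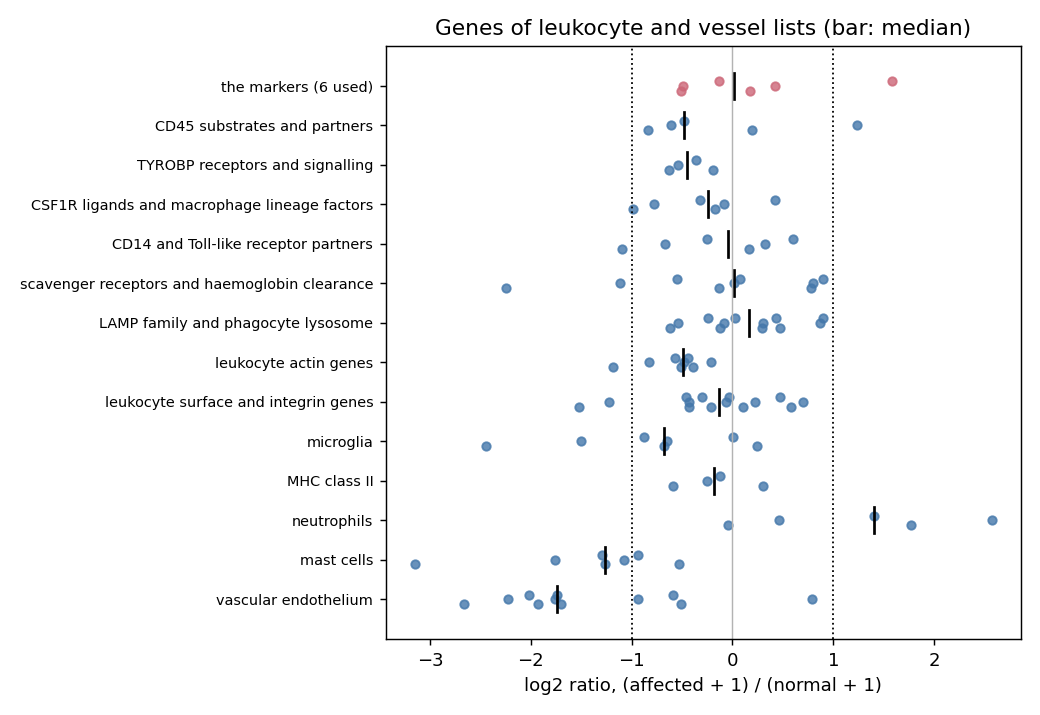
Log2 ratio of (affected + 1) over (normal + 1) of each gene with at least 1 FPKM in a library, by list, with the markers in red, other lists in blue, a bar at each median and dotted lines at 2-fold. The markers spread around a median of 0.02, the leukocyte actin genes lie below 0, and the neutrophil list lies mostly above and the mast cell list below it.

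PTPRC and TYROBP are also expressed by leukocytes other than macrophages, so markers of those cells are given here. Of the neutrophil list, 5 of 12 genes were used, and in the affected cat 3 were at least 2-fold higher. These were S100A8, with 9.62 FPKM in the normal cat and 27.0 FPKM in the affected cat, S100A9, with 2.44 and 19.5 FPKM, and S100A12, with 1.82 and 8.65 FPKM. They encode calcium-binding proteins that are abundant in neutrophils and monocytes and are also made by stressed epithelium. The receptor genes CSF3R and CXCR2 and the granule enzyme gene MPO, also on this list, were below 1 FPKM in both cats. CSF3R was listed at 0.538 and 0.480 FPKM, CXCR2 at 0.321 and 0.227 FPKM and MPO at 0.112 and 0.0742 FPKM. MMP8, a granule protease gene, was also below 1 FPKM in both and was higher in the affected cat, with 0.0332 and 0.431 FPKM. CAMP, an antimicrobial peptide gene of neutrophil granules, was listed at 4.60 and 6.72 FPKM.

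Of the mast cell list, 7 of 9 genes were used, and all 7 were lower in the affected library, 5 of them at least 2-fold. Their levels were low, so that with a minimum mean of 5 FPKM 0 of the 5 calls were left, and at 4-fold 1 was left. CPA3, a protease of mast cell granules, had 7.88 FPKM in the normal cat and 0 in the affected cat. CMA1, which encodes chymase, was listed at 2.82 and 0.128 FPKM, and KIT, the receptor for stem cell factor, at 2.97 and 0.654 FPKM. The genes of the list summed to 20.4 FPKM in the normal cat and 2.57 FPKM in the affected cat, or to 12.5 and 2.57 FPKM without CPA3.

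Of the microglia list, which shares the macrophage lineage, 7 of 9 genes were used, none at least 2-fold higher and 2 at least 2-fold lower, or 4 with a pseudocount of 0.1. GPR34, a lysophospholipid receptor, was listed at 5.92 FPKM in the normal cat and 1.44 FPKM in the affected cat. TMEM119, which is also expressed by bone and connective tissue cells, was listed at 36.7 and 5.96 FPKM. P2RY12, the purine receptor of resting microglia, was listed at 2.18 and 0.987 FPKM, and CX3CR1, the fractalkine receptor, at 1.49 and 0.354 FPKM. OLFML3, a secreted protein also made by connective tissue cells, had the highest values of the list and was higher in the affected cat, with 131.9 and 156.5 FPKM. SALL1, a transcription factor, was nearly the same in both, with 1.41 and 1.42 FPKM, and the other 5 of the 7 genes used were lower in the affected cat.

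Markers of blood and of neighbouring tissues also differed between the 2 libraries. Of 11 red blood cell genes 4 were used and 3 were at least 2-fold lower in the affected library. Their sum was 222.7 FPKM in the normal cat and 3.75 FPKM in the affected cat. HBA, an alpha globin gene with 213.7 and 1.64 FPKM, made up most of the sum of the normal cat only. EPB42 went the other way, with 0.573 and 1.27 FPKM, and HBM and SLC4A1 were listed at 0 in the affected library. Vascular endothelium genes were at least 2-fold lower in 7 of 11 cases used, with sums of 194.4 and 73.8 FPKM and none at 0. Corneal and conjunctival epithelium genes were at least 2-fold lower in 9 of 10, with sums of 754.1 and 238.1 FPKM and none at 0. The exception was PAX6, with 147.8 FPKM in the normal cat and 211 FPKM in the affected cat. It made up most of the sum of the affected cat, so that sum understates the gap of the other genes. Photoreceptor genes were at least 2-fold higher in 7 of 7, with sums of 332.6 and 1541 FPKM and none at 0. Lens genes were at least 2-fold higher in 6 of 11 used and at least 2-fold lower in CRYAA alone, with sums of 34307 and 46719 FPKM without that gene. Genes of lacrimal and conjunctival secretory epithelium, a further source of lysozyme, were at least 2-fold higher in 2 of 4 used, with sums of 13.9 and 26.2 FPKM and TFF1 at 0 in the normal library. The part of these tissues in the marker values was not tested.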

How the data were processed

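RNA was extracted with RNeasy and libraries were made with the TruSeq version 2 kit, per the labels. Alignment by the authors used TopHat2 2.0.9, the felCat5 build and Ensembl gene predictions, and they calculated the deposited FPKM values per locus with Cufflinks 2.1.1. The scaling between libraries is not given in the sources used here. Starts were counted from 0 in the table and are given from 1 here.

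Gene names were matched exactly, and the row with the higher mean was used where a name repeats. Rows that join several names were left out of this matching. Log2 ratios used a pseudocount of 1 FPKM and a minimum of 1 FPKM in at least 1 library, with 2-fold as the threshold. No p-value was calculated, since each condition has 1 library. The value of 1 fragment was found at 1962 unnamed loci of the normal and 1756 of the affected library, where 96.4% and 94.1% of values lay within 0.03 of a whole number, against 6% by chance. The step that found the value of 1 fragment was tested on simulated data. The 2-fold calls were run only on values changed by a set factor without noise. Their outcome was fixed in advance, so that run checked the code alone. The markers, the 23 further lists and the rule for genes that could be named were chosen with earlier results of these data known. That rule covered all markers, key partners, and the highest and the 2-fold genes of each list. Not every gene it allows is named here. Outside that rule, CORO1A, VSIG4, TIMD4, ITGB2, P2RY12, CX3CR1, SALL1, IRAK4, MSR1, MMP8, CD207, CYBB, NCF4, CSF3R, CXCR2, MPO, CTSS, LGMN, IRF8, CD3D, CD3G, MS4A1, SLC4A1, EPB42 and HMGXB3 were named after their values were seen. Alternatives were another pseudocount, scaling, minimum, threshold and treatment of repeated names. Python 3.11.15, numpy 2.4.6, pandas 2.3.3, scipy 1.17.1 and matplotlib 3.10.9 were used.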

Additional observations from a re-analysis of the deposited data

How the results depend on the processing

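With a 4-fold threshold none of the 6 markers was called higher (0 against 1), and 280 loci were higher and 298 lower, against 1358 and 1459 at 2-fold, as follows from the stricter threshold. The genes of the further lists called higher and lower then numbered 8 and 15, against 21 and 34. These lists name 266 genes, not all of which were used. Of all loci used, 1.68% were higher and 1.79% lower at 4-fold, against 8.14% and 8.75% at 2-fold. A minimum mean of 5 FPKM gave counts of 815 higher and 691 lower loci and of 19 lower list genes, since fewer genes are compared. The log2 ratio of CD163 lay between 1.58 and 1.80 over all alternatives, and the highest value came from a pseudocount of 0.1. Of 40 recomputed log2 ratios of the markers, 3 moved by at least 0.1 and none changed sign. Their median, 0.017, was -0.034 with both libraries rescaled to the same sum, so it has no stable sign. With a pseudocount of 0.1, 1 gene each of the CD45, TYROBP and class II lists was also at least 2-fold lower, against 0 for each. Leaving out loci that only 1 library lists at 0 was chosen after seeing the data, and it left the counts of markers as they were. Without replicates, variation between cats is unknown. No paired analysis was possible because there is a single library for each condition.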

Other observations

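Apart from CD247, markers of lymphocytes were low in both libraries. Of 15 T cell genes, 3 reached 1 FPKM, and all 3 were higher in the affected library, 1 of them at least 2-fold, or 2 with a pseudocount of 0.1. The gene past 2-fold was CD247, the zeta chain of the T cell receptor complex, with 24.7 FPKM in the normal cat and 107.7 FPKM in the affected cat. The chains that assemble with it were listed at lower levels in both cats, with CD3D at 0.262 and 0.399 FPKM and CD3G at 0.350 and 0.224 FPKM, while CD3E was listed at 1.28 and 3.26 FPKM. Of 12 B and plasma cell genes 2 were used, and MS4A1, which encodes CD20, was listed at 0.141 and 0.0864 FPKM. Of 10 genes of natural killer and cytotoxic cells 1 was used, EOMES, which is also expressed in some nerve cells, with 1.13 and 0.307 FPKM.

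Of the dendritic cell list, 5 of 11 genes were used, with 1 at least 2-fold higher and 1 at least 2-fold lower in the affected library. CD83, a surface protein of activated dendritic cells, was listed at 1.58 FPKM in the normal cat and 5.27 FPKM in the affected cat. CD1A, a lipid-presenting molecule of Langerhans cells, was listed at 20.1 and 8.37 FPKM. CD207, the langerin gene of the same cells, went the other way, with 0.420 and 1.40 FPKM. Of 13 monocyte and Fc receptor genes 4 were used and none was 2-fold apart, with MPEG1, a pore-forming protein of macrophages, at 4.59 and 2.57 FPKM. CSF2RA, a receptor chain for GM-CSF, was listed at 1.27 and 1.67 FPKM, and the 4 genes split into 2 higher and 2 lower in the affected cat.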
